A study of Mus musculus with 18 samples.

Results

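A set of 10 genes that restrain Toll-like receptor (TLR) signalling was followed across the 6 groups of an RNA-seq experiment on mouse bone marrow-derived macrophages (BMDMs). They were the A20 complex genes Tnfaip3, Tnip1 and Tnip3, the mRNA decay genes Zfp36, Zc3h12a and Zc3h12c, and the SOCS genes Socs1, Socs2, Socs3 and Cish. Each symbol matched 1 Ensembl identifier, so that 10 of the 50600 genes of the count table were taken, and all 10 passed the filter on low counts. On mm10 their gene spans are chr10:19000910-19015657 for Tnfaip3, chr11:54910785-54962917 for Tnip1, chr6:65525313-65634040 for Tnip3, chr7:28376784-28380253 for Zfp36, chr4:125118423-125127840 for Zc3h12a, chr9:52111344-52168572 for Zc3h12c, chr16:10783808-10785536 for Socs1, chr10:95385362-95417180 for Socs2, chr11:117966079-117970047 for Socs3 and chr9:107296026-107302784 for Cish, and counts were summed over all exons of a gene. The cells were grown from bone marrow of WT or IRF5 KO mice with GM-CSF over 8 days. WT unstimulated and IRF5 KO unstimulated cells received no LPS. WT LPS DMSO and IRF5 KO LPS DMSO cells were pretreated for 1 h with the DMSO vehicle and then stimulated for 2 h with 100 ng/ml LPS. WT LPS defactinib and IRF5 KO LPS defactinib cells received 3.5 μM defactinib, an inhibitor of the kinases PYK2 and FAK, in place of vehicle. The labels mark the unstimulated cells as DMSO treated and the column names as untreated, so that the presence of vehicle in them is not settled. IRF5 KO cells came from IRF5-/- mice, and the methods describe young adult male C57BL/6J mice without tying an age to single libraries. Every group has 3 biological replicates according to the series' design text, 18 libraries in all. The design asks how LPS, defactinib and loss of IRF5 change gene expression in these macrophages.

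TLR4 recognises bacterial LPS and drives NF-kB, MAP kinase and interferon regulatory factor signalling, and IRF5 is among the transcription factors activated by this route. Macrophages limit the response through genes that the response itself induces. Tnfaip3 encodes A20, an enzyme that edits ubiquitin chains on signalling proteins, and Tnip1 and Tnip3 encode ABIN proteins that bind A20 and ubiquitin. Zfp36 encodes tristetraprolin, which binds AU-rich elements in cytokine mRNAs and recruits the deadenylation machinery. Zc3h12a encodes regnase-1, an endonuclease that cuts stem-loops in inflammatory mRNAs, and Zc3h12c is a member of the same family. Socs1, Socs2, Socs3 and Cish are SOCS genes, whose proteins bind cytokine receptors or JAK kinases and dampen STAT signalling. Socs1 is known for its action on interferon receptors, Socs3 for its action on receptors of the IL-6 family, and Cish and Socs2 as targets of STAT5, which GM-CSF and growth hormone activate.

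The promoters of these genes were searched for motifs of NF-kB, STAT and interferon regulatory factors. RefSeq promoter windows (GRCm38.p6), from 250 bases before to 50 bases after the start of transcription, matched 9 of the 10 genes with 11 windows. The kappaB consensus, to which NF-kB dimers bind, was found in windows of 3 genes, Tnfaip3, Tnip1 and Tnip3, which are the A20 complex genes, and 4.5% of 32851 windows genome-wide hold it. Another Tnfaip3 window held no kappaB match, and the genome-wide shares are per window and not per gene. The Tnip3 window lies inside the gene span given above and not at its outer end. TTCNNNGAA, the letters of a STAT element, was found in windows of 4 genes, Tnip1, Zfp36, Socs3 and Cish, against 8.3% of all windows. The interferon-stimulated response element, searched by its paired GAAA core, was found in the Socs1 window alone, against 3.4% of all windows. Both strands were searched, and no site of one motif overlapped a site of another in these windows. The STAT letters were TTCCTGGAA at 199 bases before the Tnip1 start, TTCTGCGAA at 17 bases before the Zfp36 start, TTCTTAGAA at 154 bases before the Socs3 start, and TTCCTGGAA at the Cish start with TTCTTGGAA 11 bases after it. Windows of 4 genes are shown because they carry the kappaB and interferon motifs of genes whose values are described below. Each runs from 160 bases before the start to 20 bases from it, 5′ to 3′ in the direction of the gene, with matches in capitals.
Tnfaip3, chr10:19015391-19015570, minus strand: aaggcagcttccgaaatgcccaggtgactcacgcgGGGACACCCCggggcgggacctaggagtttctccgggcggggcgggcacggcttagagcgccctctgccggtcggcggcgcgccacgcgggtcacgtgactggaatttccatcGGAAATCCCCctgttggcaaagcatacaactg
Tnip1, chr11:54962921-54963100, minus strand: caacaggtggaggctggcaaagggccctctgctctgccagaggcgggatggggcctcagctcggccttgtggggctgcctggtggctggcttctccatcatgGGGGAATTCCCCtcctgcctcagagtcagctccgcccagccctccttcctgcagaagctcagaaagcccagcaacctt
Tnip3, chr6:65590238-65590417, plus strand: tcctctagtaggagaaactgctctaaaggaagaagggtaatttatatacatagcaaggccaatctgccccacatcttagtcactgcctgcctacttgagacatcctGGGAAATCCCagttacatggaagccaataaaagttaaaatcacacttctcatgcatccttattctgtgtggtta
Socs1, chr16:10785517-10785696, minus strand: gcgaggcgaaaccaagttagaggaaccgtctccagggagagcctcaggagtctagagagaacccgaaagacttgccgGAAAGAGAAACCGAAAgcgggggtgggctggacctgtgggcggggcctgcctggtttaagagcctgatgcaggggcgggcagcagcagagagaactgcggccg

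In Tnfaip3 the capitals mark kappaB matches that begin 125 and 12 bases before the start, the latter on the opposite strand. The capitals of Tnip1 and Tnip3 each mark matches that read on both strands. In Socs1 they mark GAAAGAGAAA and GAAACCGAAA, which share 4 bases. A match describes letters in the window and was not tested as a binding site.

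Library depth was 39282181 to 61949143 counted pairs, and counts of the 10 genes ranged from 98 for Socs1 to 201742 for Tnfaip3 in single libraries. Macrophage marker genes, with Lyz2 highest, summed to 9995 to 10331 CPM, the library-size scaled counts given throughout, in WT unstimulated, 9938 to 10456 CPM in WT LPS DMSO and 10905 to 15342 CPM in WT LPS defactinib libraries. In IRF5 KO they summed to 10383 to 14774, 9939 to 12418 and 18261 to 19215 CPM in the same order, so that the defactinib libraries lay above the LPS DMSO libraries in both genotypes. T, B and NK cell markers summed to 0.795 to 3.44 CPM. Of 10 mast cell and basophil markers, 5 were tested. Their sum was 8.06 to 15.7 CPM in WT libraries, with Kit highest, and 43.2 to 73.2 CPM in IRF5 KO libraries, with Gata2 highest. The mast cell protease genes Mcpt4 and Tpsab1 had no counts in either genotype. Dendritic cell markers, with Itgax highest, summed to 2381 to 2552, 2833 to 2952 and 2337 to 2963 CPM in the WT unstimulated, LPS DMSO and LPS defactinib libraries. In IRF5 KO they summed to 1979 to 2069, 2106 to 2740 and 2666 to 2749 CPM in that order, with LPS DMSO replicate 3 the lowest of its group. Neutrophil markers summed to 62.9 to 89.5 CPM in unstimulated libraries and to 117 to 237 CPM after LPS, and their part in the LPS results was not tested. The 4 eosinophil markers, all tested, summed to 64.2 to 71.2 CPM in WT unstimulated, 104 to 131 CPM in WT LPS DMSO and 65.9 to 90.8 CPM in WT LPS defactinib libraries, and in IRF5 KO to 41.8 to 57.2, 64.7 to 75.3 and 43.8 to 45.8 CPM in the same order. The part of these marker differences in the LPS, defactinib and genotype results was not tested. Irf5 itself was still counted in IRF5 KO, at 335 to 435 CPM in the 9 libraries. WT libraries held 587 to 650 CPM unstimulated, 434 to 475 CPM after LPS with DMSO and 213 to 379 CPM after LPS with defactinib, so that WT and IRF5 KO libraries overlapped. Since reads were totalled per gene, a missing exon is not visible, and the genotype labels were not checked by this gene. Ptk2b, which encodes PYK2, lay at 101 to 122 CPM in WT LPS defactinib and at 151 to 186 CPM in the other libraries. In bulk RNA a lower level can mean fewer cells that express a gene or less RNA per cell, which cannot be told apart.

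IRF5 KO LPS DMSO replicate 3 stood apart from its group before any comparison. A chi-square of counts between libraries, which is 1 per gene under sampling noise alone, was 2.33 between replicates 1 and 2 of this group but 441 and 425 against replicate 3, where the other groups gave 3.82 to 183. The highest of these, 84.1, 140 and 183, were the pairs of WT LPS defactinib, which correlated at 0.971 to 0.985. The remaining groups reached 55.2. Over all tested genes the log2 CPM of IRF5 KO LPS DMSO replicate 3 correlated at 0.978 to 0.979 with IRF5 KO unstimulated libraries and at 0.932 with the other replicates of its own group. Replicates 1 and 2, which correlated at 0.992 with each other, were at 0.985 to 0.987 with IRF5 KO LPS defactinib, at 0.895 to 0.900 with WT LPS DMSO and at 0.925 to 0.926 with IRF5 KO unstimulated libraries. Replicate 3 was at 0.954 to 0.957 with WT LPS DMSO and at 0.941 to 0.943 with IRF5 KO LPS defactinib. Outside their own group, replicates 1 and 2 were thus closest to the defactinib libraries and replicate 3 to the unstimulated ones. Whether libraries labelled IRF5 KO LPS DMSO were exchanged or treated otherwise than labelled was not tested, and all values of that group, the interactions and the effect of defactinib in IRF5 KO take its labels as given, also without replicate 3. The 10 genes showed it too. Replicate 3 held 9.97-fold less Tnfaip3, 7.50-fold less Zfp36 and 3.37-fold less Socs3 than the mean of replicates 1 and 2, and 16.9-fold more Socs1, 2.50-fold more Zc3h12a and 2.37-fold more Tnip1. Scaling also bears on directions. With library size alone in place of TMM the median log2 change of all tested genes moved by -0.38 for LPS in WT and by 0.20 for defactinib in WT, and the share of called genes that were higher moved from 54.5% to 31.4% and from 35.9% to 49.2%. In IRF5 KO that share moved from 53.0% to 34.8% for LPS, from 17.4% to 5.7% for defactinib and from 32.6% to 17.9% for LPS with defactinib against unstimulated. Results are given from all 18 libraries and, where they use this group or change, from a fit of 17 libraries without it, which tested 16037 genes.

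**Figure D1:**
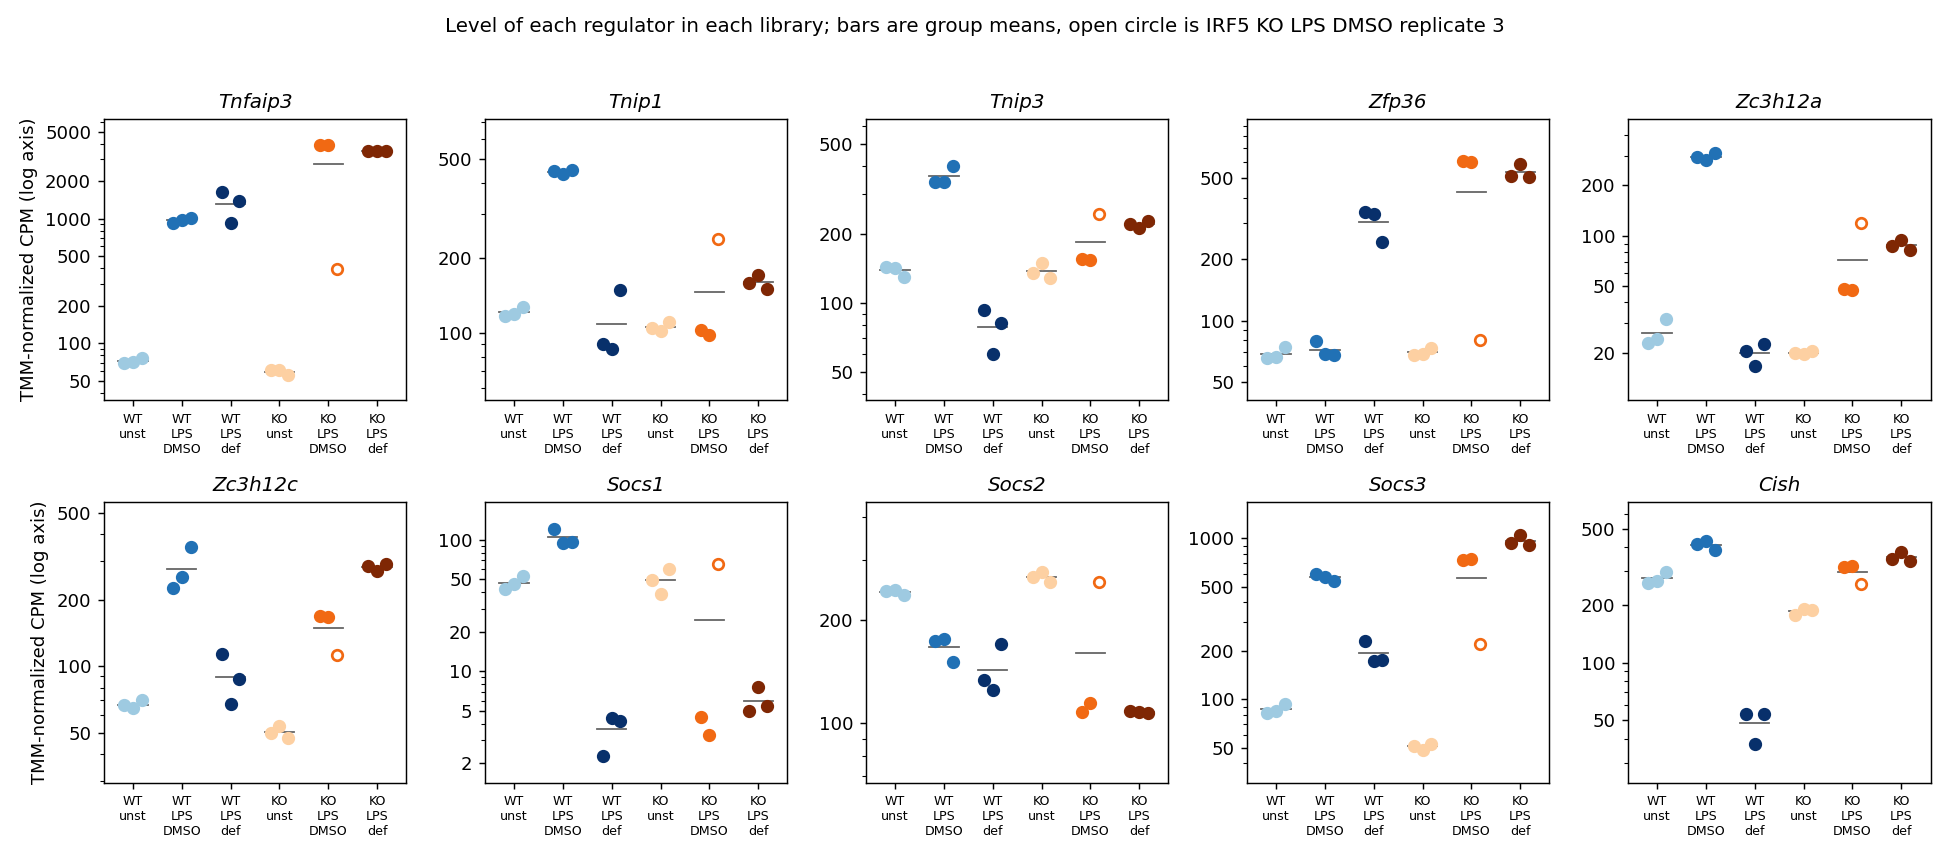
TMM-normalized CPM (log axis) of each regulator in the 18 libraries, grouped as WT or IRF5 KO (KO), unstimulated (unst), LPS with DMSO, or LPS with defactinib (def). Points are libraries, bars are group means, and the open circle is IRF5 KO LPS DMSO replicate 3, which lies away from its replicates for most genes.

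LPS raised 6 of the 10 regulators in WT cells and lowered none, with a call set at an adjusted p under 0.05 together with a more than 2-fold change (edgeR), which 21.3% of the 15663 tested genes met in either direction, 11.6% upward and 9.71% downward. Tnfaip3 and Zc3h12a rose most, by 13.5-fold and 11.2-fold, followed by Socs3, Zc3h12c, Tnip1 and Tnip3. All 3 A20 complex genes, 2 of the 3 decay genes and 1 of the 4 SOCS genes were called. The median log2 fold change of the 10 genes was 1.62, beside -0.0045 over all tested genes. Libraries of the WT unstimulated and WT LPS DMSO groups did not overlap for 9 of the 10 genes, which held for 64.6% of tested genes.

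Among the A20 complex genes, Tnfaip3 stood at 68.9, 71.1 and 75.6 CPM in the WT unstimulated libraries and at 925, 981 and 1014 CPM in the WT LPS DMSO libraries. The log2 fold change was 3.76 with a standard error (SE, on the log2 scale here and below) of 0.56 (adjusted p = 6.82e-05). Tnip1 stood at 117, 119 and 127 CPM before LPS and 446, 432 and 450.1 CPM after it. Every stimulated library lay above every unstimulated library for both genes, and Tnip1 rose by 1.87 on the log2 scale (SE 0.27, adjusted p = 5.39e-05). Tnip3 moved from 144, 143 and 131 CPM to 341, 341 and 399 CPM. It rose by 1.37 (SE 0.17, adjusted p = 1.08e-05), the smallest called rise among the 10 genes, and with library size alone as the scaling its value of 0.99 fell short of the threshold.

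The decay genes split. Zc3h12a rose from 23.03, 24.2 and 32.0 CPM to 296, 283 and 311 CPM, a log2 fold change of 3.49 (SE 0.29, adjusted p = 2.23e-07). Zc3h12c rose from 66.6, 64.4 and 70.2 CPM to 228, 255 and 349 CPM, or 2.05 (SE 0.19, adjusted p = 7.11e-07), with replicate 3 of the stimulated group the highest. Both were above all unstimulated libraries in each replicate. Zfp36 was at 65.3, 66.6 and 74.4 CPM without LPS and at 79.6, 68.7 and 67.9 CPM with it. Those groups overlapped, and the log2 fold change of Zfp36 was 0.07 (95% interval -0.90 to 1.04, adjusted p = 0.923), with a sign that turned to -0.31 under scaling by library size alone. The fit of 17 libraries gave 0.07 for Zfp36 with an SE of 0.11 (adjusted p = 0.642).

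Of the SOCS genes only Socs3 was called. It rose from 82.5, 84.2 and 93.2 CPM to 599, 576 and 544 CPM, a log2 fold change of 2.73 (SE 0.31, adjusted p = 5.55e-06). Cish was at 262, 268 and 297 CPM in unstimulated and 416, 433 and 389.7 CPM in stimulated libraries. The groups did not overlap, yet the log2 fold change of 0.58 (SE 0.12, adjusted p = 0.00115) was under the fold threshold. Socs1 was at 42.3, 46.1 and 53.3 CPM and 122, 95.3 and 96.5 CPM, again without overlap. Its log2 fold change of 1.15 did not pass in the fit of 18 libraries (SE 0.74, adjusted p = 0.239) and did pass at 1.14 in the fit of 17 libraries (SE 0.21, adjusted p = 0.00029), as it did at 1.14 with only the groups compared (adjusted p = 1.2e-05). In the fit of 17 libraries 7 of 10 genes were called against 23.1% of 16037 tested genes. Socs2 was the gene with lower values after LPS, at 174, 176 and 151 CPM against 244, 245 and 236 CPM, and its log2 fold change of -0.54 was not called (adjusted p = 0.0826). With 17 libraries the Socs2 value of -0.54 passed the false discovery rate (SE 0.095, adjusted p = 0.000133) and not the fold threshold.

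**Figure D2:**
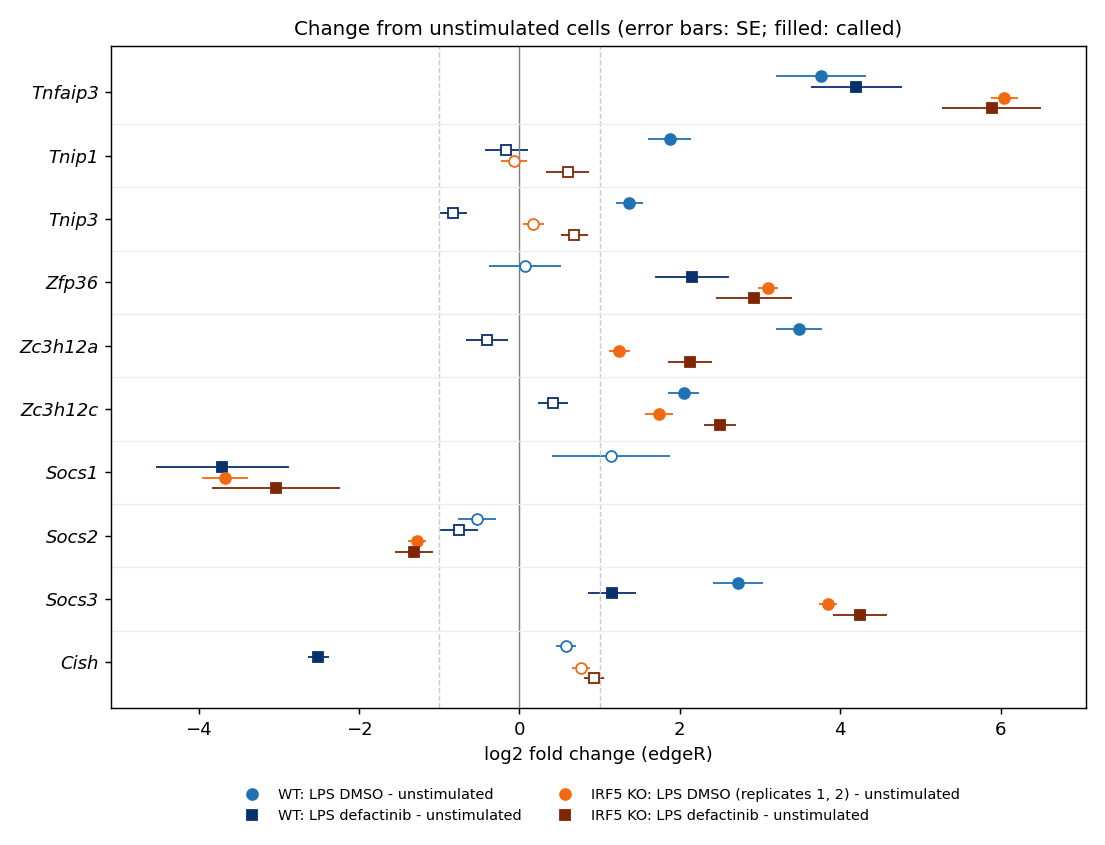
Log2 fold changes from unstimulated cells of the same genotype (x axis) for the 10 regulators. Circles are LPS with DMSO, squares LPS with defactinib, error bars are standard errors, filled symbols passed the thresholds, and the IRF5 KO LPS DMSO values come from the fit without replicate 3 while the others come from all 18 libraries. Tnfaip3 and Socs3 rise in all 4 comparisons, and Socs1 falls in all but WT LPS DMSO.

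Defactinib turned most of these genes down in LPS-stimulated WT cells. Of the 10 genes, 7 fell, 1 rose and 2 were not called, where 29.1% of tested genes passed in either direction, 18.6% downward and 10.4% upward. Socs1 fell most, 28.9-fold, then Zc3h12a 14.9-fold and Cish 8.52-fold, while Zfp36 rose 4.24-fold. The median over the 10 genes was -1.83 on the log2 scale beside 0.09 over all tested genes. Library groups did not overlap for 8 of the 10 genes, against 62.5% of tested genes. The same 8 were called without IRF5 KO LPS DMSO replicate 3, where 30.7% of tested genes passed. This comparison shares the WT LPS DMSO libraries with the LPS comparison, so that both sets of values are given side by side and not correlated.

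Tnfaip3 was not called with defactinib, and Tnip1 and Tnip3 fell. Tnfaip3 was at 1641, 929.7 and 1389.7 CPM with defactinib, which overlaps the range with DMSO, and its log2 fold change was 0.44 (95% interval -0.65 to 1.53, adjusted p = 0.467). In the fit of 17 libraries the Tnfaip3 change was also 0.44 (SE 0.13, adjusted p = 0.00775). It passed the false discovery rate there and not the fold threshold. Tnip1 was at 90.3, 85.7 and 148 CPM. It fell by 2.04 on the log2 scale (SE 0.28, adjusted p = 2.21e-05), and replicate 3 kept the highest level. Tnip3 was at 93.3, 60.1 and 82.2 CPM, below all stimulated DMSO libraries and also below all unstimulated ones. It fell by 2.20 (SE 0.18, adjusted p = 1.15e-07).

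The decay genes moved in opposite directions. Zfp36 was at 341, 332 and 244 CPM with defactinib and LPS. Each of these libraries lay above every other WT library, and Zfp36 rose by 2.08 on the log2 scale (SE 0.46, adjusted p = 0.0015) although LPS with DMSO had left it near the unstimulated level. Zc3h12a was at 20.5, 16.7 and 22.5 CPM, a fall of 3.89 (SE 0.29, adjusted p = 7.72e-08), which placed every library below the lowest unstimulated value of WT. Zc3h12c was at 114, 67.8 and 87.2 CPM and fell by 1.63 (SE 0.19, adjusted p = 5.31e-06), with replicate 1 the highest.

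Of the SOCS genes, 3 fell and Socs2 was not called. Socs1 was at 2.28, 4.43 and 4.16 CPM, from 98 counts in the lowest library, and fell by 4.85 on the log2 scale (SE 0.87, adjusted p = 0.000287). Cish was at 53.8, 37.8 and 53.8 CPM and fell by 3.09 (SE 0.13, adjusted p = 2.24e-10). Both genes lay far below their unstimulated levels in each library. Socs3 was at 229, 174 and 175 CPM, between the unstimulated and the LPS DMSO libraries, and fell by 1.57 (SE 0.30, adjusted p = 0.000441). Socs2 was at 134, 125 and 171 CPM with a log2 fold change of -0.22 (95% interval -0.73 to 0.29).

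Set against WT unstimulated cells, LPS with defactinib left 3 genes raised and 2 lowered, where 24.9% of tested genes passed in either direction, 9.1% upward and 15.8% downward, and 53.2% by false discovery rate alone. The fit of 17 libraries called the same numbers, against 26.3%. Groups did not overlap for 8 of the 10 genes, against 61.5% of tested genes. Tnfaip3 was 18.4-fold higher (SE 0.57, adjusted p = 4.59e-05), Zfp36 4.44-fold higher (adjusted p = 0.00159) and Socs3 2.22-fold higher (adjusted p = 0.00485), and Socs3 missed the fold threshold at 0.98 with library size alone as the scaling. Socs1 was 13.05-fold lower (SE 0.83, adjusted p = 0.00205) and Cish 5.69-fold lower (SE 0.13, adjusted p = 6.12e-09). Tnip1, Zc3h12a and Zc3h12c, which LPS alone had raised, had log2 fold changes of -0.16, -0.41 and 0.42 that were not called. Tnip3 at -0.83 and Socs2 at -0.75 passed the false discovery rate (adjusted p = 0.00102 and 0.0148) but not the fold threshold, and Tnip3 passed both at -1.01 under scaling by library size alone.

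**Figure D3:**
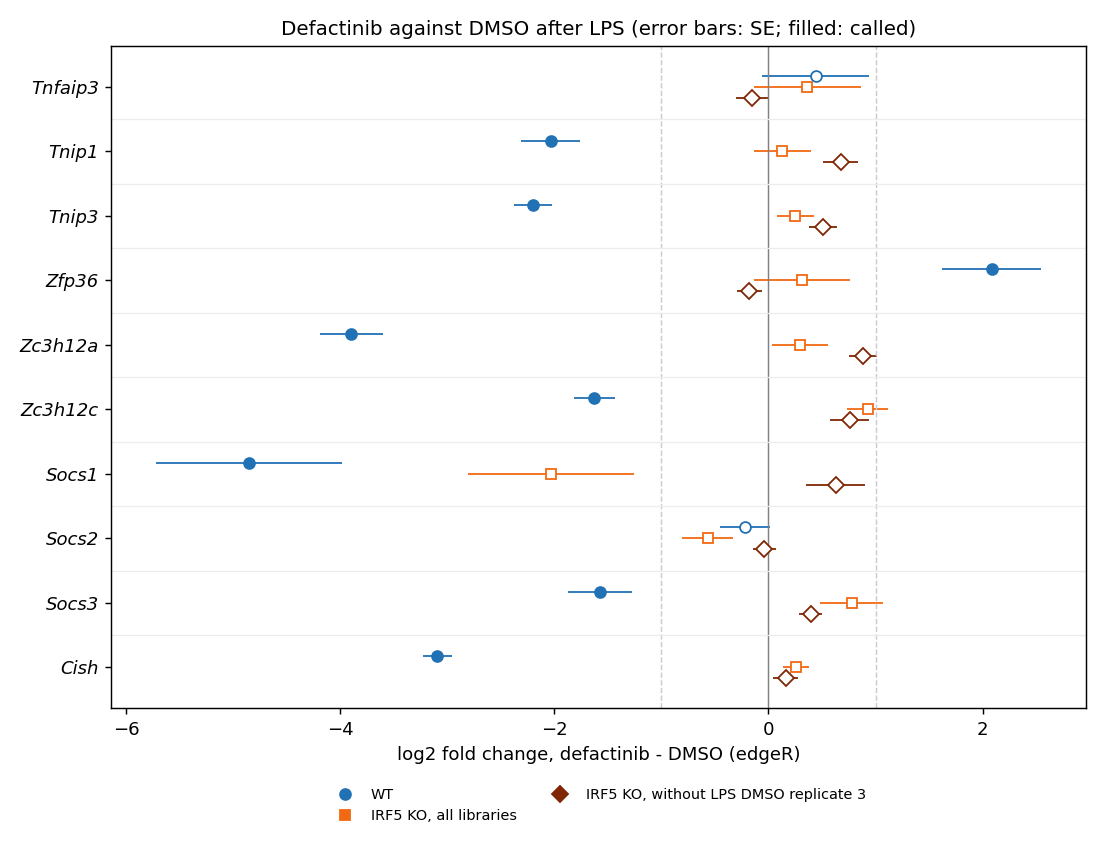
Log2 fold changes of LPS with defactinib over LPS with DMSO (x axis), for WT, for IRF5 KO with all libraries, and for IRF5 KO without LPS DMSO replicate 3. Error bars are standard errors and filled symbols passed the thresholds, which 8 of 10 genes did in WT and none did in IRF5 KO in either fit.

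In IRF5 KO cells LPS raised 5 of the 10 genes and lowered none by edgeR in the fit of all 18 libraries, where 13.3% of tested genes passed, 7.07% upward and 6.28% downward. Without LPS DMSO replicate 3 the same 5 genes were raised and 2 were lowered, Socs1 and Socs2, against 26.2% of tested genes, 9.64% upward and 16.6% downward. The 5 were Tnfaip3, Socs3, Zfp36, Zc3h12a and Zc3h12c. The median log2 fold change of the 10 genes was 1.13 with all libraries and 1.01 without replicate 3, beside 0.0063 and -0.0055 over all tested genes. Libraries did not overlap for 8 of the 10 genes, against 40.1% of tested genes. When only the groups compared were fitted, with replicate 3 kept, 2 genes were called, Socs3 and Zc3h12c, against 1.08% of 14149 tested genes, and limma-voom on all 18 libraries called 6, against 13.9%, with Socs1 lower at -2.17 (adjusted p = 0.0157).

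Tnfaip3 was at 60.9, 60.6 and 56.0 CPM in unstimulated IRF5 KO cells and at 3880.4, 3927 and 391 CPM after LPS. Replicates 1 and 2 were above every WT library and replicate 3 was below all WT LPS libraries. The log2 fold change was 5.53 with all libraries (SE 0.61, adjusted p = 4.24e-05) and 6.04 without replicate 3 (SE 0.17, adjusted p = 8.86e-14). Tnip1 was at 104, 101 and 110.1 CPM and then at 102, 97.7 and 237 CPM, and Tnip3 at 136, 149 and 129 CPM and then at 156, 155 and 246 CPM. For both, replicate 3 was the high library. Neither was called, at 0.47 and 0.43 with all libraries and -0.07 and 0.17 without replicate 3.

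Zfp36, which LPS alone did not change detectably in WT, went from 68.2, 68.4 and 73.4 CPM to 604, 599 and 80.3 CPM in IRF5 KO. Replicate 3 stayed near the unstimulated level. Zfp36 rose by 2.61 on the log2 scale (SE 0.47, adjusted p = 0.00193), and by 3.10 without replicate 3 (SE 0.12, adjusted p = 4.76e-12). Zc3h12a went from 20.1, 19.8 and 20.5 CPM to 47.9, 47.6 and 119.5 CPM, with replicate 3 the highest, and Zc3h12c from 49.6, 53.4 and 47.4 CPM to 169, 167 and 112 CPM, with replicate 3 the lowest. Zc3h12a rose by 1.83 (SE 0.27, adjusted p = 0.000522) and without replicate 3 by 1.25 (SE 0.13, adjusted p = 2.81e-07). Zc3h12c rose by 1.58 (SE 0.19, adjusted p = 8.61e-05) and without replicate 3 by 1.74 (SE 0.17, adjusted p = 2.97e-07).

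Socs3 went from 51.3, 48.5 and 53.0 CPM to 732, 741 and 219 CPM in IRF5 KO and rose by 3.47 (SE 0.32, adjusted p = 7.07e-06), or by 3.85 without replicate 3 (SE 0.11, adjusted p = 1.11e-13). Socs1 went from 49.5, 38.7 and 59.8 CPM to 4.48, 3.26 and 65.5 CPM. Replicates 1 and 2 were below all unstimulated libraries and replicate 3 above them, and the log2 fold change was -1.01 with all libraries (SE 0.74, adjusted p = 0.289) and -3.67 without replicate 3 (SE 0.29, adjusted p = 4.54e-08), 12.7-fold lower. Socs2 went from 268, 277 and 259 CPM to 108, 114 and 258 CPM, with replicate 3 just below the unstimulated libraries. Its log2 fold change was -0.75 (SE 0.24, adjusted p = 0.0243) and -1.28 without replicate 3 (SE 0.11, adjusted p = 4.21e-08). Cish went from 178, 191 and 189 CPM to 317, 319 and 259 CPM without overlap, at 0.68 (SE 0.12, adjusted p = 0.00178), under the fold threshold in both fits.

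The difference between the genotypes in their LPS response, taken as an interaction term, passed for 3 genes, where 9.83% of tested genes were called, 6.33% upward and 3.49% downward. With library size alone the share of these called genes that were upward moved from 64.5% to 44.7%. The WT response was larger for Tnip1, by 1.40 on the log2 scale (SE 0.38, adjusted p = 0.0201), and for Zc3h12a, by 1.65 (SE 0.37, adjusted p = 0.00812), and it was smaller for Zfp36, at -2.54 (SE 0.64, adjusted p = 0.0152). The call of Tnip1 was lost when IRF5 KO LPS DMSO replicate 1 was left out (1.18, adjusted p = 0.0524), with library size alone (1.21, adjusted p = 0.0503) and with no filter on low counts (1.38, adjusted p = 0.0626). That of Zfp36 was lost by limma-voom (-2.06, adjusted p = 0.0623). Other tools called 2 more genes with all libraries, Tnfaip3 by DESeq2 (-1.77, adjusted p = 0.0404), which called 12.5% of tested genes, and Socs1 by limma-voom (3.31, adjusted p = 0.0106), which called 12.1%. Without replicate 3 of that group the 3 calls held and 4 more genes passed, against 23.6% of tested genes. These were Socs1 at 4.81 (SE 0.36, adjusted p = 4.54e-08), Tnfaip3 at -2.29 (SE 0.20, adjusted p = 7.96e-08), Tnip3 at 1.20 (SE 0.18, adjusted p = 3.7e-05) and Socs3 at -1.13 (SE 0.14, adjusted p = 7.09e-06). Positive values are a larger response of WT cells. After LPS with DMSO, Socs1 was higher than unstimulated in WT libraries and lower in replicates 1 and 2 of IRF5 KO, while Zfp36 was higher in those IRF5 KO replicates and not detectably so in WT.

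In LPS-stimulated IRF5 KO cells defactinib changed none of the 10 genes past the thresholds by edgeR, with all libraries or without LPS DMSO replicate 3. DESeq2 and limma-voom also called 0, against 3.34% and 0.607% of tested genes. By unadjusted p under 0.05, which 23.3% of tested genes met, there were 4 genes, Zc3h12c, Socs1, Socs2 and Socs3, and by false discovery rate alone, which 3.36% of tested genes met, 1 gene, Zc3h12c at 0.93 (SE 0.19, adjusted p = 0.0205). Of 15663 tested genes 144 passed in this comparison, or 0.919%, and 1.45% passed without replicate 3. That count was 874 and 891 genes when IRF5 KO LPS DMSO replicate 1 or 2 was left out, and 20 to 29 genes when any replicate of IRF5 KO LPS defactinib was, so that it depends on single libraries. As given above, replicates 1 and 2 of the DMSO group were nearly as close to the defactinib libraries as to each other. DMSO and defactinib groups did not overlap for 3 of the 10 genes, Zc3h12c, Socs3 and Cish, against 26.6% of tested genes. The defactinib libraries lay close together. Tnfaip3 was at 3516, 3497 and 3509 CPM, Tnip1 at 159, 170.1 and 149.5 CPM and Tnip3 at 222, 214 and 228 CPM. Zfp36 was at 508, 583 and 506 CPM, Zc3h12a at 86.9, 94.5 and 82.3 CPM and Zc3h12c at 287, 272 and 293 CPM. Socs1 was at 4.97, 7.59 and 5.45 CPM, Socs2 at 109, 108 and 107 CPM, Socs3 at 938, 1051 and 911 CPM and Cish at 346, 378 and 342 CPM. Replicates 1 and 2 of LPS DMSO lay below all defactinib libraries for Tnip1, Tnip3, Zc3h12a, Zc3h12c, Socs1, Socs3 and Cish, and above them for Tnfaip3 and, by a narrow margin, Zfp36.

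The fit without replicate 3 gave log2 fold changes of 0.88 for Zc3h12a (SE 0.13, adjusted p = 0.000929), 0.76 for Zc3h12c (SE 0.18, adjusted p = 0.0173), 0.67 for Tnip1 (SE 0.16, adjusted p = 0.0195), 0.51 for Tnip3 (SE 0.13, adjusted p = 0.0287) and 0.39 for Socs3 (SE 0.11, adjusted p = 0.0371). Each passed the false discovery rate, as did 7.83% of tested genes in that fit, and not the fold threshold. For Socs1 the value was -2.03 with all libraries and 0.63 without replicate 3, a change of sign, and neither was called. With IRF5 KO LPS DMSO replicate 1 or 2 left out in place of 3, Socs1 was called at -2.54 or -2.56 (adjusted p = 0.0384 and 0.0303), and without replicate 1 Zc3h12c was called at 1.01 (adjusted p = 0.0157). Tnfaip3 and Zfp36 also changed sign without replicate 3, to -0.15 and -0.18, and were not called.

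The effect of defactinib differed between the genotypes for 7 of the 10 genes, where 22.8% of tested genes were called, 10.5% upward and 12.3% downward. With library size alone the median of all tested genes moved by 0.33 and the share of called genes that were upward from 46.2% to 69.0%. The interaction, WT effect minus IRF5 KO effect, was -4.19 for Zc3h12a (SE 0.39, adjusted p = 1.3e-06), -3.34 for Cish (SE 0.18, adjusted p = 3.53e-09) and -2.55 for Zc3h12c (SE 0.27, adjusted p = 3.65e-06). It was -2.45 for Tnip3, -2.35 for Socs3 and -2.16 for Tnip1 (adjusted p = 2.07e-06, 0.000501 and 0.000418). These 6 genes fell with defactinib in WT. Zfp36, which rose in WT, had an interaction of 1.77 (SE 0.63, adjusted p = 0.0399), and this call did not hold when any of 16 other libraries was left out, with adjusted p up to 0.0989, nor by limma-voom (1.27, adjusted p = 0.184), with no filter (1.74, adjusted p = 0.1), with only the groups compared (1.76, adjusted p = 0.0921) or with the replicate number as a block (1.64, adjusted p = 0.0594). In the fit of 17 libraries it was 2.26 (SE 0.16, adjusted p = 3.9e-09), the 6 others kept their calls, and Socs1 joined at -5.48 (SE 0.38, adjusted p = 1e-08) from -2.82 with all libraries (SE 1.08, adjusted p = 0.0536), where 31.6% of tested genes passed. With all libraries DESeq2 and limma-voom also called Socs1, at -2.84 (adjusted p = 0.0291) and -4.02 (adjusted p = 0.0106), as did edgeR with the block (-3.39, adjusted p = 0.0264). Tnfaip3 and Socs2 were not called in either fit.

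Against IRF5 KO unstimulated cells, LPS with defactinib raised 5 genes and lowered 2, where 24% of tested genes passed in either direction, 7.85% upward, 16.2% downward and 53.4% by false discovery rate alone. The fit of 17 libraries also called 5 and 2, against 25.3%, and these values compare no LPS DMSO library. Tnfaip3 was 59.3-fold higher (SE 0.62, adjusted p = 1.18e-05), Socs3 18.98-fold (SE 0.34, adjusted p = 6.47e-07), Zfp36 7.60-fold (SE 0.48, adjusted p = 0.000267), Zc3h12c 5.66-fold (SE 0.20, adjusted p = 5.02e-07) and Zc3h12a 4.37-fold (SE 0.27, adjusted p = 5.19e-05). Socs1 was 8.23-fold lower (SE 0.80, adjusted p = 0.00532) and Socs2 2.48-fold lower (SE 0.24, adjusted p = 0.000488). Cish at 0.93 and Tnip3 at 0.68 passed the false discovery rate alone, and Tnip1 was at 0.60 (adjusted p = 0.0679). These groups did not overlap for any of the 10 genes, nor for 72.5% of tested genes. The 7 genes called are those that LPS with DMSO changed in IRF5 KO in the fit without replicate 3, and every direction is the same, while both comparisons share the unstimulated libraries.

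Between unstimulated cells of both genotypes none of the 10 genes was called by edgeR, DESeq2 or limma-voom, where 7.31% of tested genes were called by edgeR. By unadjusted p under 0.05, which 26.4% of tested genes met, there were 3 genes, Zc3h12c, Socs3 and Cish. The fit of 17 libraries also called 0, against 8.58%. With all 18 libraries Cish was the 1 gene of the 10 that passed the false discovery rate, as did 15.3% of tested genes, 1.48-fold higher in WT (SE 0.12, adjusted p = 0.00456), under the fold threshold. With 17 libraries Cish, Socs3 and Zc3h12a passed it, as did 25.3% of tested genes, with Zc3h12a at 0.39 (adjusted p = 0.0193). Socs3 was 1.70-fold higher in WT (adjusted p = 0.101, and 1.78e-05 at the same size without IRF5 KO LPS DMSO replicate 3). Library groups did not overlap for 7 of 10 genes, against 51.4% of tested genes, and those of Tnip3, Zfp36 and Socs1 overlapped.

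After LPS with DMSO, WT and IRF5 KO differed in 5 genes, where 25.8% of tested genes were called, 14% as higher and 11.8% as lower in WT. With library size alone the median of all tested genes moved by -0.25 and the share of called genes that were higher in WT from 54.4% to 38.1%. Groups did not overlap for 7 of the 10, against 50.9% of tested genes. WT cells held 4.26-fold more Socs1 (SE 0.76, adjusted p = 0.0314), 4.13-fold more Zc3h12a (SE 0.27, adjusted p = 2.5e-05) and 3.04-fold more Tnip1 (SE 0.27, adjusted p = 0.000208). They held 5.94-fold less Zfp36 (SE 0.47, adjusted p = 0.000438) and 2.81-fold less Tnfaip3 (SE 0.51, adjusted p = 0.0237). The calls of Socs1 and Tnfaip3 did not hold when replicate 1 or 2 of IRF5 KO LPS DMSO or any replicate of WT LPS DMSO was left out, with adjusted p between 0.0524 and 0.105. Nor did they hold with no filter (adjusted p = 0.097 and 0.0613), where 15.1% of tested genes passed, or with only the groups compared (adjusted p = 0.2 and 0.158), where 19.5% did, that of Socs1 with library size alone (1.73, adjusted p = 0.0692), and that of Tnfaip3 by limma-voom (-0.89, adjusted p = 0.207). Without replicate 3 of IRF5 KO LPS DMSO the differences were larger, 26.9-fold for Socs1 (SE 0.30, adjusted p = 2.94e-09) and 4.01-fold for Tnfaip3 (SE 0.15, adjusted p = 3.34e-09), and Tnip3 was called at 2.31-fold more in WT (SE 0.14, adjusted p = 7.1e-07), against 34.5% of tested genes. Zc3h12c was called at 1.00 (adjusted p = 0.000893) without WT LPS DMSO replicate 1, from 0.89 with all libraries.

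After LPS with defactinib the genotypes stood otherwise. WT cells had lower levels of 6 of the 10 genes and higher levels of none, where 17.3% of tested genes passed in either direction, 8.87% as lower and 8.45% as higher in WT. Cish was 7.34-fold lower in WT (SE 0.13, adjusted p = 5.8e-10), Socs3 5.02-fold (SE 0.31, adjusted p = 2.98e-05), Zc3h12a 4.41-fold (SE 0.27, adjusted p = 2.09e-05), Zc3h12c 3.16-fold (SE 0.19, adjusted p = 6.58e-06) and Tnip3 2.82-fold (SE 0.17, adjusted p = 6.55e-06). Tnfaip3 was 2.66-fold lower (SE 0.51, adjusted p = 0.0417), a call that was lost on leaving out any of 15 libraries, with adjusted p from 0.0521 to 0.13, by limma-voom (-1.45, adjusted p = 0.0596), with no filter (-1.44, adjusted p = 0.0934) or with the replicate block (-1.41, adjusted p = 0.0511), and that without IRF5 KO LPS DMSO replicate 3 stood at the same size (SE 0.13, adjusted p = 1.64e-07). The same 6 were called in the fit of 17 libraries, against 20.3%. The 10 genes did not overlap between these groups, against 51.5% of tested genes. Zc3h12a and Tnip3 were higher in WT than in IRF5 KO replicates 1 and 2 after LPS with DMSO and lower in WT after LPS with defactinib.

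Levels can be compared between genes only per exonic length, here as CPM divided by exonic kilobases (RPKM). In WT unstimulated cells the 10 genes lay between 9.16 RPKM for Zc3h12a and 43.0 RPKM for Cish, and Tnfaip3 was the eighth in that order at 9.95 RPKM. Cish, Socs1 and Tnip1 overlapped their neighbours at the top of that order, and Tnfaip3, Zc3h12c and Zc3h12a at the bottom. After LPS with DMSO, Socs3 at 198 RPKM and Tnfaip3 at 135 RPKM led in WT, followed by Tnip1 at 125 and Zc3h12a at 103 RPKM, and Socs2 was lowest at 17.5 RPKM. With defactinib, Tnfaip3 at 183, Zfp36 at 88.0 and Socs3 at 66.6 RPKM were the top of the WT order, with Zfp36 and Socs3 overlapping, while Socs1 at 2.97 RPKM was last. IRF5 KO LPS defactinib libraries had those genes on top as well, Tnfaip3 at 485, Socs3 at 334 and Zfp36 at 153 RPKM, and Socs1 again last at 4.92 RPKM. In IRF5 KO LPS DMSO every pair of neighbours in the order overlapped, and replicate 3 lies apart there.

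**Figure D4:**
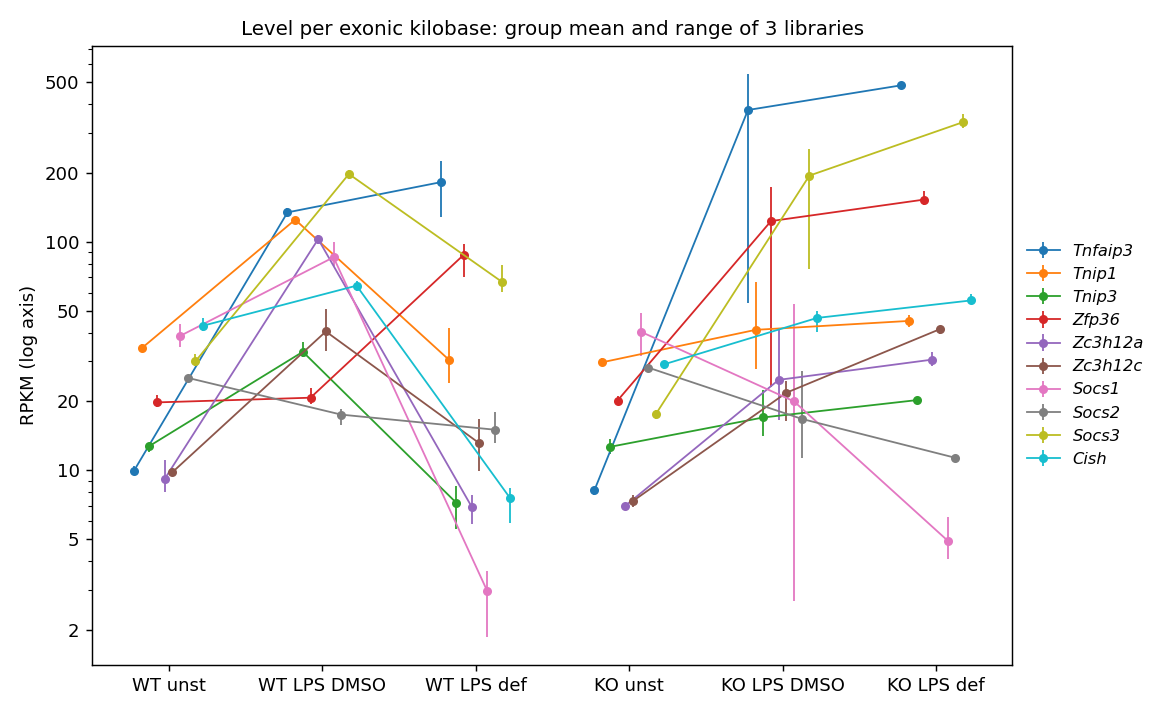
Mean RPKM (log axis) of each regulator in the 6 groups, with vertical lines from the lowest to the highest of 3 libraries. Tnfaip3 is the eighth of the 10 genes in both unstimulated groups and the first or second in the LPS groups, and Socs1 falls to the bottom in both defactinib groups, and the long lines in KO LPS DMSO come from replicate 3.

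Other genes of the same families are given for comparison. Of 17 relatives, among them Tnip2, Cyld, Otulin, the Zfp36 paralogs, the Roquin genes Rc3h1 and Rc3h2 and the remaining Socs genes, 16 were tested. In WT cells LPS raised 2 of them and lowered 4, or 37.5%, with a median log2 fold change of -0.15. In this and the lists that follow, the shares called are to be read beside 21.3% of all tested genes for LPS and 29.1% for defactinib in WT. Tax1bp1 and Itch, which encode adaptor and ligase partners of A20, were the most abundant, and neither was called, at 0.79 and -0.70. Zfp36l2, an AU-rich element binding paralog of Zfp36, fell by 1.97 with LPS (SE 0.27, adjusted p = 2.48e-05) and by a further 1.75 with defactinib (SE 0.27, adjusted p = 6.24e-05). Socs7 rose by 1.32 and Rnf11 by 1.03 with LPS, while Socs5, Zc3h12d and Zfp36l1 fell by 1.01, 1.00 and 1.74, names given after their values were seen. Defactinib lowered 7 of the 16 in WT, or 43.8%, and raised none, with a median of -0.83 beside 0.09 over all tested genes. The largest of these falls was that of Otud7b, an A20-family deubiquitinase, at -2.73 (SE 0.34, adjusted p = 1.21e-05). In IRF5 KO defactinib called none of the 16 by edgeR, against 0.919% of tested genes, and DESeq2 called 1, Zc3h12d, against 3.34%.

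Of 30 other inhibitors of TLR and NF-kB signalling, all tested, LPS raised 14 and lowered 5 in WT, or 63.3%, with a median of 0.93, and defactinib raised 2 and lowered 13, with a median of -0.84. Nfkbiz, an atypical IkB gene, rose by 7.99 with LPS (SE 0.62, adjusted p = 1.5e-07) and was not called with defactinib at -0.17. Bcl3, another atypical IkB gene, rose by 1.97 (SE 0.37, adjusted p = 0.000583) and fell by 3.67 with defactinib (SE 0.41, adjusted p = 3.67e-06). Il1rn, the IL-1 receptor antagonist, rose by 1.83 and fell by 1.01 (SE 0.15, adjusted p = 4.8e-05). Nfkbia, which encodes IkBα, rose by 2.80 (SE 0.23, adjusted p = 1.98e-07) and had a log2 fold change of -0.84 with defactinib, under the fold threshold. The genes higher with defactinib were Sigirr and Inpp5d, at 2.05 and 1.26, and those lower with LPS were Tnfaip8l2, Inpp5d, Pdlim2, Cd200r1 and Sigirr. In IRF5 KO defactinib raised 1 of the 30, the MAP kinase phosphatase gene Dusp4, at 1.16, and lowered none, against 0.919% of tested genes called. Without LPS DMSO replicate 3 it raised Bcl3 as well, against 1.45%.

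The receptors, kinases and STATs on which SOCS proteins act were 22 tested genes. LPS raised 7 and lowered 2 in WT, or 40.9%, with a median of 0.46, and defactinib raised 1 and lowered 6, with a median of -0.54. The defactinib share, 31.8%, lies near the 29.1% of all tested genes. The GM-CSF receptor genes Csf2rb and Csf2rb2 were the most abundant and were called in neither comparison, at -0.74 and -0.40 with LPS and at 0.19 and 0.11 with defactinib. Il6ra, the IL-6 receptor gene, fell by 3.50 with LPS (SE 0.23, adjusted p = 2.1e-08) and rose by 2.59 with defactinib (SE 0.22, adjusted p = 2.6e-07), and Il6st, its signalling partner, was the other gene lowered by LPS, by 1.72. Il10ra, the IL-10 receptor gene, rose by 1.82 and fell by 3.99 (SE 0.35, adjusted p = 4.46e-07). Stat5a and Stat5b, named after their values were seen, rose by 3.05 and 1.59 with LPS and fell by 3.26 and 1.64 with defactinib. In IRF5 KO defactinib called none of the 22 by edgeR, against 0.919% of tested genes, and DESeq2 called 1, Stat2, against 3.34%.

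Inflammatory mRNAs that are textbook targets of tristetraprolin or regnase-1 were 20 tested genes. LPS raised 18 and lowered 0 in WT, with a median of 5.18, and defactinib lowered 15 and raised 1, Ier3, an immediate-early gene, with a median of -2.04. Il6 had the largest change both ways, 12.74 with LPS (SE 1.49, adjusted p = 7.43e-06) and -7.31 with defactinib (SE 1.13, adjusted p = 8.28e-05). The unstimulated mean of Il6 was 0.141 CPM, so that its rise depends on few counts. Tnf rose by 4.45 (SE 0.28, adjusted p = 1.29e-08) and fell by 1.52 with defactinib (SE 0.25, adjusted p = 0.000106). Cxcl3 rose by 2.22 and fell by 1.40 (SE 0.35, adjusted p = 0.00354). In IRF5 KO cells 17 of the 20 were raised by LPS with defactinib over unstimulated, as were 7.85% of all tested genes. Defactinib over DMSO called 0 by edgeR with all libraries and 1 without replicate 3, Icosl, against 0.919% and 1.45% of tested genes. DESeq2 called 1, Cxcl2, against 3.34%, and limma-voom called 2, against 0.607%. In WT the counts of these 4 lists were the same with and without IRF5 KO LPS DMSO replicate 3. Il10 stands in this list and in that of other inhibitors, as does Nfkbiz.

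The 10 genes did not follow a single pattern over the 18 libraries. Pearson's r of log2 CPM, given as a description since libraries share groups, was 0.95 between Zc3h12c and Socs3, 0.93 between Tnfaip3 and Socs3 and 0.92 between Tnip1 and Zc3h12a. It was -0.94 between Tnfaip3 and Socs2 and -0.92 between Zfp36 and Socs1. Tnfaip3 and its partner Tnip1 were at 0.21. Without IRF5 KO LPS DMSO replicate 3 the values, in the same order, were 0.95, 0.93, 0.92, -0.96, -0.92 and 0.22. Among the 8459 tested genes whose mean log2 CPM reached 3, those most like each regulator over the 18 libraries were Ppp1r15a and Mir155hg for Tnfaip3 (r = 0.989 and 0.985), Dcbld2 and Ifih1 for Tnip1 (0.987 and 0.980) and Resf1 and Cdc27 for Tnip3 (0.979 and 0.979). They were Phlda1 and Pomp for Zfp36 (0.987 and 0.984), Sqstm1 and Cpeb4 for Zc3h12a (0.994 and 0.980) and Denr and H3f3b for Zc3h12c (0.987 and 0.974). They were Zfp281 and Rin3 for Socs1 (0.988 and 0.988), Gid8 and Slx4 for Socs2 (0.984 and 0.983), Fgfr1op and Tnf for Socs3 (0.976 and 0.975) and Aar2 and Btg1 for Cish (0.991 and 0.980). Over 17 libraries the nearest gene was another for 3 regulators, Fbxo11 for Tnip3, Ctdsp2 for Socs2 and Tnf for Socs3.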

How the data were processed

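Bulk RNA-seq of 18 libraries, 3 for each of 6 groups, was analysed from the table of raw counts per gene that the authors deposited. Per the labels and the study's methods, reads were aligned with STAR to mm10 and read pairs were counted by strand with featureCounts 1.6.3. From these counts, genes were kept with filterByExpr and scaled with TMM, and 15663 of 50600 genes were tested with edgeR 4.0.16 quasi-likelihood F tests (R 4.3.3) on all 18 libraries, which share 1 estimate of the spread. P-values were adjusted by Benjamini-Hochberg over all tested genes. A gene was called at an adjusted p below 0.05 and a log2 fold change beyond 1. CPM and RPKM were computed from the counts with TMM library sizes and exonic lengths. Standard errors were obtained from the fold change and its F statistic.

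Where replicates share no stated culture or animal, p-values measure the spread between these libraries, which may be technical in part. Depth was 39282181 to 61949143 counted pairs per library. DESeq2 1.42.0, limma 3.58.1 (voom), other scalings and filters, a replicate block, fits of the compared groups alone and omission of each library were run as alternatives. The edgeR test of LPS in WT was checked on simulated counts in which no library stood apart. Of the changed genes that were tested, it called 66% at a true absolute log2 change of 1.5 and 83.7% at 2, with 4 false calls. The 10 genes and the comparison lists were chosen with earlier results of these data known. In the comparison lists the genes named are the 2 with the highest mean and the called gene with the largest change by LPS or defactinib in WT, plus genes marked as named after their values were seen or given to complete a small count. The genes most like a regulator are the 2 with the highest Pearson's r among tested genes whose mean log2 CPM reached 3.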

Additional observations from a re-analysis of the deposited data

Results flagged for a closer look

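The response to LPS differed between WT and IRF5 KO cells, by the test of the interaction in edgeR, for 3 of the 10 genes, where 9.83% of tested genes were called. The log2 difference, WT minus IRF5 KO, was 1.40 for Tnip1 (standard error 0.38, adjusted p = 0.0201), 1.65 for Zc3h12a (standard error 0.37, adjusted p = 0.00812) and -2.54 for Zfp36 (standard error 0.64, adjusted p = 0.0152). Without IRF5 KO LPS DMSO replicate 3 the values were 1.94, 2.24 and -3.04. The call of Zfp36 was lost by limma-voom (-2.06, adjusted p = 0.0623) and that of Tnip1 with library size alone (1.21, adjusted p = 0.0503) and with no filter on low counts (1.38, adjusted p = 0.0626). Leaving out IRF5 KO LPS DMSO replicate 1 also ended the Tnip1 call (1.18, edgeR adjusted p = 0.0524).

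The effect of defactinib after LPS differed between the genotypes for 7 genes by the same test, where 22.8% of tested genes were called. The log2 difference was -4.19 for Zc3h12a (adjusted p = 1.3e-06), -3.34 for Cish (adjusted p = 3.53e-09), -2.55 for Zc3h12c (adjusted p = 3.65e-06), -2.45 for Tnip3 (adjusted p = 2.07e-06), -2.35 for Socs3 (adjusted p = 0.000501), -2.16 for Tnip1 (adjusted p = 0.000418) and 1.77 for Zfp36 (adjusted p = 0.0399). Without that library they were -4.78, -3.25, -2.38, -2.71, -1.97, -2.71 and 2.26. The call of Zfp36 was lost by limma-voom (1.27, adjusted p = 0.184), with no filter (adjusted p = 0.1), with only the groups compared (adjusted p = 0.0921), with the replicate block (adjusted p = 0.0594) and on leaving out any of 16 libraries. Both interactions take the labels of the IRF5 KO LPS DMSO libraries as given.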

How the results depend on the processing

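Of 2970 values of single regulators under an alternative, 2838 kept direction and side of the threshold, 34 newly passed, 63 no longer passed and 35 changed sign. With only the groups compared in the fit, LPS in IRF5 KO called 2 regulators and WT against IRF5 KO after LPS with DMSO called 3, as it did with no filter. With no fold threshold that comparison called 8, against 52.2% of tested genes, and defactinib in IRF5 KO and the unstimulated genotypes called 1 each, against 3.36% and 15.3%. The cause was not tested.

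Leaving out each library in turn gave 6 to 7 calls for LPS in WT, 5 to 7 for LPS in IRF5 KO, 8 to 8 for defactinib in WT, 0 to 2 for defactinib in IRF5 KO, 5 to 5 and 7 to 7 for LPS with defactinib against unstimulated in WT and IRF5 KO, 0 to 0, 3 to 6 and 5 to 6 for WT against IRF5 KO unstimulated, after LPS with DMSO and after LPS with defactinib, and 2 to 7 and 6 to 8 for the interactions with LPS and with defactinib. In the same order the share of all tested genes called was 19.1% to 23.1%, 6.46% to 26.2%, 26.3% to 30.7%, 0.125% to 5.55%, 22.1% to 26.3%, 21.7% to 25.3%, 5.52% to 8.58%, 21.3% to 34.5%, 14.9% to 20.3%, 6.65% to 23.6% and 20.2% to 31.6%.

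Signs changed mostly for values near 0. Library size alone gave -0.041 for Tnip1 under defactinib in IRF5 KO, -0.10 for Tnip3 between unstimulated genotypes, -0.31 for Zfp36 under LPS in WT, and -0.23 for Socs2 and -0.19 for Socs3 between the genotypes after LPS with DMSO. That Tnip3 value was -0.0033 with no filter and -0.0005 with a filter of 5 CPM in 3 libraries, and that Socs3 value -0.021 with the latter filter and -0.0090 in the compared groups alone. The Tnfaip3 interaction with defactinib was -0.56 by limma-voom.

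Leave-one-out ranges that crossed 0 were, for defactinib in IRF5 KO, -0.15 to 0.70 (Tnfaip3), -0.11 to 0.67 (Tnip1), -0.18 to 0.63 (Zfp36) and -2.56 to 0.63 (Socs1). Between unstimulated genotypes they were -0.037 to 0.072 (Tnip3), -0.086 to 0.0083 (Zfp36) and -0.21 to 0.10 (Socs1), and after LPS with DMSO -0.17 to 0.59 (Socs2) and -0.36 to 0.25 (Socs3). The others were -0.073 to 0.71 for Tnip1 under LPS in IRF5 KO, -0.011 to 0.13 for Zfp36 under LPS in WT, -0.027 to 0.74 for the Socs2 interaction with LPS, and -0.24 to 0.59 (Tnfaip3) and -0.18 to 0.60 (Socs2) for interactions with defactinib.

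Over the whole design replicate numbers did not pair the libraries: deviations of 45 same-numbered pairs had a median r of 0.0046, 4 exceeded 0.1, of which 3 (0.15, 0.16 and 0.28) were the pairs of IRF5 KO LPS DMSO with WT LPS defactinib, and 7 of 18 libraries correlated best with their own number. With the number as a replicate block the comparisons called 6, 5, 8, 0, 5, 7, 0, 5, 5, 3 and 7 regulators in the order of the leave-one-out counts for LPS in WT and IRF5 KO, defactinib, LPS with defactinib, genotype and interactions, against 21.2%, 14.3%, 29.2%, 0.524%, 24.7%, 23.9%, 7.14%, 26.0%, 17.1%, 10.6% and 23.1% of tested genes. Tnfaip3 between genotypes after defactinib was at -1.41 (edgeR adjusted p = 0.0511) and the Zfp36 interaction with defactinib at 1.64 (adjusted p = 0.0594), both no longer called, the Socs1 interaction was called at -3.39 (adjusted p = 0.0264), and the Tnfaip3 interaction was -0.020.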
